A study of Homo sapiens with 6 samples.

Results

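The box C/D snoRNAs SNORD112 to SNORD116 are small nucleolar RNAs encoded in tandem copies in imprinted domains at 14q32 and 15q11. They were taken as every gene whose RefSeq symbol, found from its Entrez gene ID, begins with one of these 5 names, which gave 117 of 40448 genes. The 14q32 domain held 41 of them, with 1 SNORD112, 9 SNORD113 and 31 SNORD114 copies. The 15q11 domain held 76, with 47 SNORD115 and 29 SNORD116 copies. Expression was measured by RNA-seq of total RNA, after DNase treatment and ribosomal RNA depletion, in 6 clones of the established human cell line KYSE150, from an oesophageal squamous cell carcinoma. Mock clones 1, 4 and 5 carried the pIRES2-EGFP vector in stable form, and NCCRP1 clones 1, 6 and 17 were stable transfectants of a vector expressing human NCCRP1, an F-box-associated domain protein. Each clone gave 1 library, so each group rested on 3 separately labelled clones of 1 line, and the p-values cover no more than the variation among these 6 libraries. Wherever 3 values are given for a group, they stand in the order of clones 1, 4 and 5 for mock and of clones 1, 6 and 17 for NCCRP1. Mock clones 1 and 4 and NCCRP1 clone 1 were sequenced in run 15, and the other 3 clones in run 14.

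Imprinted genes are transcribed from the copy inherited from 1 parent. At 15q11 the paternal copy is transcribed, and SNORD116 and SNORD115 are processed from introns of the long noncoding host RNA SNHG14, which starts near SNURF and SNRPN. At 14q32 the maternal copy is transcribed, and SNORD112, SNORD113 and SNORD114 come from the noncoding transcripts that follow MEG3. Loss of the paternal SNORD116 copies is linked to Prader-Willi syndrome, and SNORD115, best known from neurons, can base pair with the serotonin receptor transcript HTR2C. Most box C/D snoRNAs guide 2'-O-methylation of ribosomal RNA and carry a C box near the 5' end and a D box near the 3' end, where the core proteins bind. SNORD116 has no established target of this kind.

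In the GENCODE v29 annotation of GRCh38, the 29 SNORD116 copies lay on the plus strand of chromosome 15 between bases 25051477 and 25106603, in the order of their numbers. The 47 SNORD115 copies followed on the same strand between 25170723 and 25269858. SNHG14 spanned all of these, with 22 SNORD116 and 45 SNORD115 copies wholly in its introns and 7 and 2 overlapping an exon of some SNHG14 transcript. On chromosome 14, SNORD112 lay at 100897920 to 100897996, the 9 SNORD113 copies between 100924824 and 100945720, and the 30 matched SNORD114 copies between 100949833 and 100993310. All lay on the plus strand within MEG8, and 8 SNORD113 and 30 SNORD114 copies were intronic there.

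The sequences below carry the results that follow. They are RNA genes written as DNA, 5' to 3', from GENCODE v29 transcripts, with the C box (TGATGA) and the D box (CTGA) in capitals where these exact letters stood in the first or last 20 bases. SNORD116-3, SNORD116-23, SNORD116-27 and SNORD116-29 each stand for 1 of the 4 sequence groups, given below, of the SNORD116 copies that were read. SNORD116-28 and SNORD116-10 were listed at 0 in every clone; the former lacks the exact C box, and the latter holds both boxes. SNORD114-3 was the only member to pass the group test given below, on few reads and not in most other settings. SNORD114-17 is its closest relative. SNORD115-16 and SNORD115-19 are examples of copies with very few reads.
SNORD116-3: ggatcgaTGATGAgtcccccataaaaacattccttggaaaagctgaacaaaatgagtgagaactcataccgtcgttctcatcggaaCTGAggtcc
SNORD116-23: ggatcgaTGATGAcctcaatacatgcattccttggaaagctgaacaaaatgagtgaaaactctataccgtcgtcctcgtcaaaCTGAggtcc
SNORD116-27: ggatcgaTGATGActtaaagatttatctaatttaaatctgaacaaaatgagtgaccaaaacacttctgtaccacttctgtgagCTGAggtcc
SNORD116-29: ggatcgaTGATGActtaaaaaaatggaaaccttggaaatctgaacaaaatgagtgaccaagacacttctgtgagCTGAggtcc
SNORD116-28: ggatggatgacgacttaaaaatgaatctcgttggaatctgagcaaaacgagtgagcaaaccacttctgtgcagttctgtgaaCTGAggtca
SNORD116-10: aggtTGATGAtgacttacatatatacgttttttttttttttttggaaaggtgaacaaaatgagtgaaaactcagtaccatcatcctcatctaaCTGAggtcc
SNORD114-3: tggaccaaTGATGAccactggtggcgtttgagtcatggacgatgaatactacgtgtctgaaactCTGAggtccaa
SNORD114-17: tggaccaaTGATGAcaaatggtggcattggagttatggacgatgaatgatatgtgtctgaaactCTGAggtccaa
SNORD115-16: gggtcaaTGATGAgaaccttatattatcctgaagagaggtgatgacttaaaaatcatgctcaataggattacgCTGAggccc
SNORD115-19: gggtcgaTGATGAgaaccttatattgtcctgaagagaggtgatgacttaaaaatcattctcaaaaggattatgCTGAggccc
Searched on the transcript strand alone, both boxes stood in 28 of 29 SNORD116, 40 of 47 SNORD115, 20 of 30 SNORD114 and 8 of 9 SNORD113 sequences and in SNORD112. Among 144 other SNORD genes 59.7% held both, and among 108 box H/ACA snoRNAs, a separate class that guides pseudouridylation, 0 did. The 27 SNORD116 copies above 0 were divided into 4 groups by sequence, a number that was set and not found from the data. Copies 1 to 9 shared a median 95.8% of bases, copies 11 to 24 shared 92.4%, copies 25 to 27 shared 89.1%, and copy 29 stood alone. SNORD116-3 and SNORD116-9 were identical, as were copies 5 and 7 and copies 17 and 19. Copies 3 and 23 matched at 85.3% and copies 23 and 29 at 75% of bases. How reads that fit several copies were counted, and whether counting used strand, is not given in the sources used here, so the split between near-identical copies is uncertain.

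The deposited values are log2 RPKM (reads per kilobase of gene length, scaled to the size of the library), and values under 1 RPKM are listed as 0. Depth was estimated at 12300000 to 15970000 reads in mock and 14570000 to 18080000 in NCCRP1 libraries, from the whole-read steps of microRNA values within a search range of 10000000 to 20000000, and every number of reads given here assumes that depth. Between 12477 and 12821 genes were above 0 in a library. TPT1 and UBB, which every cell uses, were also listed at 0 in all 6, so a listed 0 need not mean that no RNA was present. NCCRP1 stood at log2 RPKM 6.19, 8.07 and 6.71 in the NCCRP1 clones and was listed at 0 in the 3 mock clones. All 5 squamous markers were above 0 in every clone, with TP63 between 3.94 and 4.97, DSG3 between 4.01 and 4.56 and EGFR between 5.36 and 5.57. KRT14 was less even, at 4.22, 3.71 and 1.995 in the mock and 2.23, 1.89 and 1.11 in the NCCRP1 clones (log2 difference -1.57, limma adjusted p = 0.631). Of 7 neuronal markers 4 were at 0 throughout (SYN1, SNAP25, ELAVL4 and HTR2C). The summed neuronal list ran from 34.2 to 61.0 RPKM in mock and 42.1 to 51.9 in NCCRP1 clones, nearly all of it TUBB3. In bulk RNA, fewer cells with a transcript and less RNA per cell cannot be told apart.

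Of the 117 members, 36 were above 0 in at least 1 clone and 81 were listed at 0 in all 6. The domains differed widely: 27 of 29 SNORD116 copies were above 0 somewhere, against 6 of 47 SNORD115 and 3 of 41 members at 14q32. By clone, members above 0 numbered 27, 29 and 30 in the mock group and 23, 28 and 22 in the NCCRP1 clones, or 28.7 ± 1.53 against 24.3 ± 3.21 (SD, n = 3 each). NCCRP1 clone 6 lay above mock clone 1, so the groups overlapped. SNORD116 made up nearly all of these, with 25, 27 and 27 copies in mock and 22, 24 and 21 in NCCRP1 clones. At 14q32 the numbers were 1, 1 and 0 in mock and 1, 2 and 1 in NCCRP1 clones. In every clone 15q11 had at least 20 more members above 0 than 14q32.

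The SNORD112 to SNORD114 genes came close to the reading limit. SNORD112 and all 9 SNORD113 copies were listed at 0 in every clone, and only SNORD114-1, SNORD114-3 and SNORD114-28 were above 0 in any. SNORD114-1 was seen in NCCRP1 clone 6 alone, at log2 RPKM 1.41, or 3 estimated reads. SNORD114-28 was seen in mock clone 4 alone, at 1.15, or 2 reads. SNORD114-3 stood at 0.14, 0 and 0 in the mock group and 2.17, 1.35 and 2.48 in the NCCRP1 clones. All 3 NCCRP1 clones were above all 3 mock clones, as for 5.71% of all genes tested.

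SNORD114-3 rose in the NCCRP1 clones by 1.95 on the log2 scale, with each listed 0 taken as 0 (SE 0.283, limma adjusted p = 0.0380). It met the filter of at least 3 libraries above 0 through the NCCRP1 clones alone, the group in which it was high. It was 1 of 13 genes that passed among 12737 tested (0.102%), of which 9 were higher in the NCCRP1 clones (0.0707%). For this gene alone, the two-sided exact permutation test gave p = 0.1, the smallest it can give for 3 clones against 3. The call rests on 1 read in mock clone 1 and on 6, 3 and 6 reads in the NCCRP1 clones, with 95% Poisson intervals of 0.0253 to 5.57, 2.20 to 13.1, 0.619 to 8.77 and 2.20 to 13.1 that cover counting error only. The interval of mock clone 1 overlapped all 3 others. The adjusted p exceeded 0.05 in most other settings of the test, up to 0.317 with log2(RPKM + 0.1), where the log2 difference was 4.16, and was 0.0980 with the sequencing run as a term. It also exceeded 0.05 when any clone but NCCRP1 clone 6 was left out, at 0.0507 to 0.177.

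The listing limit itself differed between libraries at 14q32. A lone read was worth enough to be listed only for genes of at most 81, 78 and 62 bases in the mock group and 55, 63 and 68 bases in the NCCRP1 clones. For 40 of the 41 genes at 14q32, 1 read would therefore show in mock clones 1 and 4, and for 0 of them in the other 4 clones. For SNORD114-3, of 74 bases, 1 read equalled 1.10, 1.06 and 0.846 RPKM in the mock and 0.747, 0.852 and 0.927 RPKM in the NCCRP1 clones. Thus the 0 in mock clone 5 may stand for 1 read.

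The rest of the 14q32 domain was nearly silent as listed. MEG3 and MEG8, the noncoding transcripts of the maternal copy, and DLK1, RTL1, DIO3, MEG9, DIO3OS and BEGAIN were at 0 in all 6 clones. Of 48 microRNAs of the domain found in the files, 47 were at 0 throughout, and MIR409 was listed at 0.04 in mock clone 1, which is 1 read. WDR25, PPP2R5C and DYNC1H1 at the domain's edge were expressed, and 0 of these 3 passed the limma test (adjusted p 0.771 to 0.989). WDR25 stood at 2.93, 2.85 and 2.89 in the mock and 2.72, 2.68 and 2.36 in the NCCRP1 clones. Its groups did not overlap, with NCCRP1 lower, as for 7.05% of all genes tested.

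SNORD115 was close to absent as listed. Its 7 values above 0 were all worth 1 or 2 reads, in 6 copies. A lone read would be listed for only 10, 6 and 2 of the 47 copies in the mock and 2, 2 and 2 in the NCCRP1 clones. For the other copies a listed 0 may stand for 1 read. Mock clone 5 had 2 reads each of SNORD115-12, SNORD115-19 and SNORD115-41, and NCCRP1 clone 6 had 2 each of SNORD115-18 and SNORD115-19. Mock clone 1 had 2 reads of SNORD115-16, and mock clone 4 had 1 of SNORD115-48. NCCRP1 clones 1 and 17 had none listed. No copy was above 0 in 3 clones, so none was tested. SNORD115-18 and SNORD115-19 have the same sequence, so the clone of origin is surer than the copy.

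**Figure D1:**
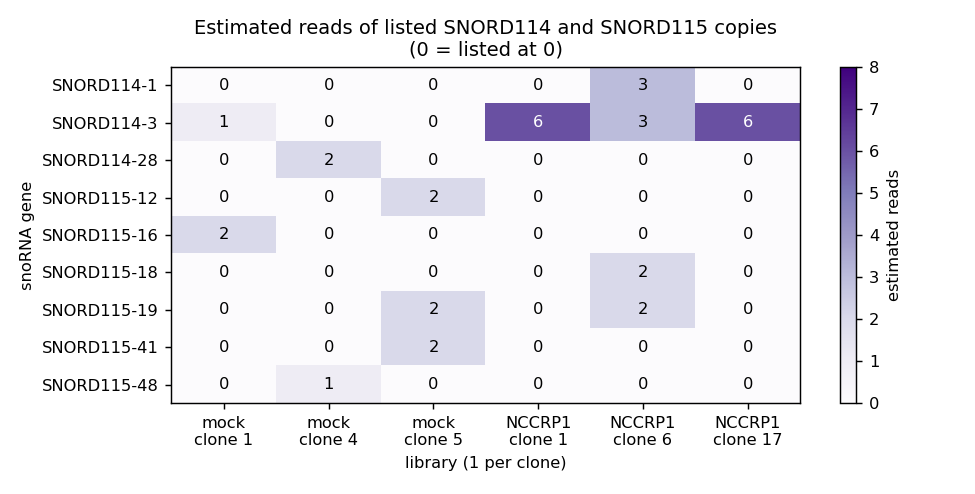
Estimated reads in each of the 6 libraries (columns) for the SNORD114 and SNORD115 copies above 0 in any clone (rows), where 0 means listed at 0 and can hide a lone read. SNORD114-3 has 6, 3 and 6 reads in the NCCRP1 clones and 1 in mock clone 1, and no SNORD115 cell exceeds 2.

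SNORD116 was read in all 6 clones, and its summed level ranged widely among them. The summed level is given as RPM, the estimated reads scaled by library depth. The 29 copies together gave 56.1, 95.2 and 184 RPM in the mock group and 31.9, 71.8 and 14.6 in the NCCRP1 clones. These sums rested on 690, 1208 and 2936 reads in the mock and 576, 1139 and 213 in the NCCRP1 clones. The highest clone was 12.6 times the lowest, far beyond the Poisson intervals, which were 177 to 191 RPM in mock clone 5 and 12.7 to 16.7 in NCCRP1 clone 17. Means were 111.7 ± 65.4 in mock and 39.4 ± 29.3 in NCCRP1 clones (SD, n = 3 each), and the geometric mean of the mock clones was 3.09-fold that of the NCCRP1 clones. The groups overlapped, since NCCRP1 clone 6 lay above mock clone 1. Within run 15 the log2 difference was -1.20 and within run 14 it was -2.50, and in each run every NCCRP1 clone lay under every mock clone. However, clone 1 was the only NCCRP1 clone of run 15, and clone 5, the highest, was the only mock clone of run 14. Without NCCRP1 clone 17 the log2 difference was -1.06, and without mock clone 5 it was -1.18, against -1.63 with all 6.

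**Figure D2:**
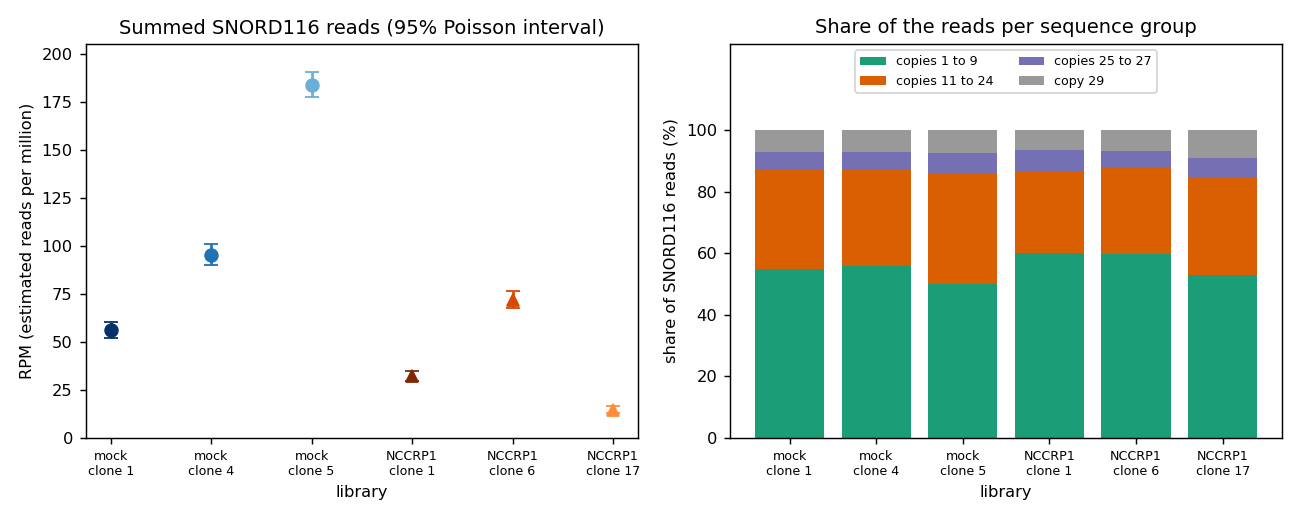
Left, summed SNORD116 level in RPM (estimated reads scaled by depth, linear axis) in each library, with 95% Poisson intervals for counting error: 184 in mock clone 5, 14.6 in NCCRP1 clone 17. Right, share of those reads (%) in each of the 4 sequence groups, where copies 1 to 9 hold 50.01% to 60.1% in every clone.

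The makeup of the cluster varied less between clones than its level. Copies 1 to 9 held 50.01% to 60.1% of SNORD116 reads per clone, copies 11 to 24 held 26.6% to 36.1%, copies 25 to 27 held 5.48% to 6.73%, and copy 29 held 6.58% to 8.92%. SNORD116-3, SNORD116-9, SNORD116-23 and SNORD116-29 alone held 42.3% to 48.9%. SNORD116-10 and SNORD116-28 were listed at 0 in all 6 clones, and SNORD116-12, the copies from SNORD116-17 to SNORD116-21 and SNORD116-27 were at 0 in at least 1 NCCRP1 clone. Over the 20 copies above 0 in every clone, log2 values of clone pairs correlated with r from 0.676 to 0.967 across the 15 pairs. The 138 other box C/D snoRNAs gave 0.962 to 0.991. These are descriptions across genes of shared libraries, not tests.

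SNORD116-23 was among the highest copies. It stood at log2 RPKM 6.66, 7.15 and 7.90 in the mock group and 5.38, 6.46 and 4.07 in the NCCRP1 clones. Every NCCRP1 clone lay below every mock clone, with a log2 difference of -1.93 (SE 0.677, limma adjusted p = 0.606). SNORD116-3, which is 14 edits away from copy 23 in sequence, stood at 6.07, 6.999 and 7.76 in the mock and at 5.34, 6.67 and 4.02 in the NCCRP1 clones. Here NCCRP1 clone 6 lay above mock clone 1, and the log2 difference was -1.60 (SE 0.813, limma adjusted p = 0.777). SNORD116-9, of the same sequence as copy 3, stood at 6.26, 6.86 and 7.74 against 5.19, 6.71 and 4.26.

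SNORD116-29, the only copy in its sequence group, was at 5.55, 6.32 and 7.30 in the mock and 4.63, 5.84 and 3.94 in the NCCRP1 clones. It had the same order of clones as copy 3, with a log2 difference of -1.59 (SE 0.650, limma adjusted p = 0.683). SNORD116-7 was lower in level, at 4.88, 5.12 and 5.97 against 3.68, 4.33 and 2.31, with no overlap (log2 difference -1.88, limma adjusted p = 0.4999). SNORD116-4 departed from its neighbours: its mock values of 2.90, 3.27 and 3.01 lay close together, whereas the NCCRP1 values were 1.18, 2.77 and 0.47. Its log2 difference was -1.58 (SE 0.526, limma adjusted p = 0.522).

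The middle copies were lower and less even. SNORD116-16 stood at 0.79, 4.45 and 5.60 in the mock and 2.20, 3.86 and 2.35 in the NCCRP1 clones, so that mock clone 1 was the lowest of all 6. SNORD116-14 stood at 1.06, 1.08 and 3.19 against 1.02, 2.05 and 1.36, and differed least (log2 difference -0.30, limma adjusted p = 0.973). For both, the mean of the NCCRP1 clones was above that of the mock clones once mock clone 5 was left out. SNORD116-15 stood at 3.18, 3.27 and 5.90 in the mock and 0.82, 2.88 and 1.13 in the NCCRP1 clones, with no overlap. SNORD116-13 stood at 3.17, 4.38 and 5.83 against 2.73, 3.57 and 0.55, where NCCRP1 clone 6 again exceeded mock clone 1.

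Some of the lowest copies were listed in the mock clones alone or nearly so. SNORD116-17 stood at 0.51, 3.20 and 3.82 in the mock clones but was at 0 in all 3 NCCRP1 clones, so it passed the filter on low values through the mock clones only. SNORD116-19, identical to it in sequence, stood at 0.79, 2.85 and 4.01 against 0.23, 0 and 0. SNORD116-27 stood at 2.96, 3.68 and 5.13 against 0.82, 2.86 and 0, also without overlap. SNORD116-12 was at 0, 1.72 and 4.23 against 0, 1.01 and 0, and SNORD116-20, listed at 2.33 and 1.87 in mock clones 4 and 5 only, was not tested. SNORD116-18 overlapped, at 1.79, 0.63 and 2.66 against 0, 1.75 and 0, as did SNORD116-21, at 1.91, 0.95 and 3.29 against 0, 1.49 and 1.13. SNORD116-22 spanned the least between mock clone 5 and NCCRP1 clone 17, at 1.57, 3.15 and 4.11 against 2.03, 2.57 and 2.35.

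The remaining 9 copies were each highest in mock clone 5 and lowest in NCCRP1 clone 17. In mock clone 5, SNORD116-1, SNORD116-2, SNORD116-5, SNORD116-6 and SNORD116-8 stood at 6.39, 6.58, 5.54, 6.88 and 6.66. In NCCRP1 clone 17 the same copies stood at 3.40, 2.92, 1.501, 3.33 and 2.79. SNORD116-11, SNORD116-24, SNORD116-25 and SNORD116-26 stood at 6.32, 6.97, 5.52 and 5.55 in mock clone 5 and at 1.87, 3.35, 2.72 and 1.73 in NCCRP1 clone 17. All 9 of these copies were above 0 in every clone, and in all 9 the groups overlapped.

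**Figure D3:**
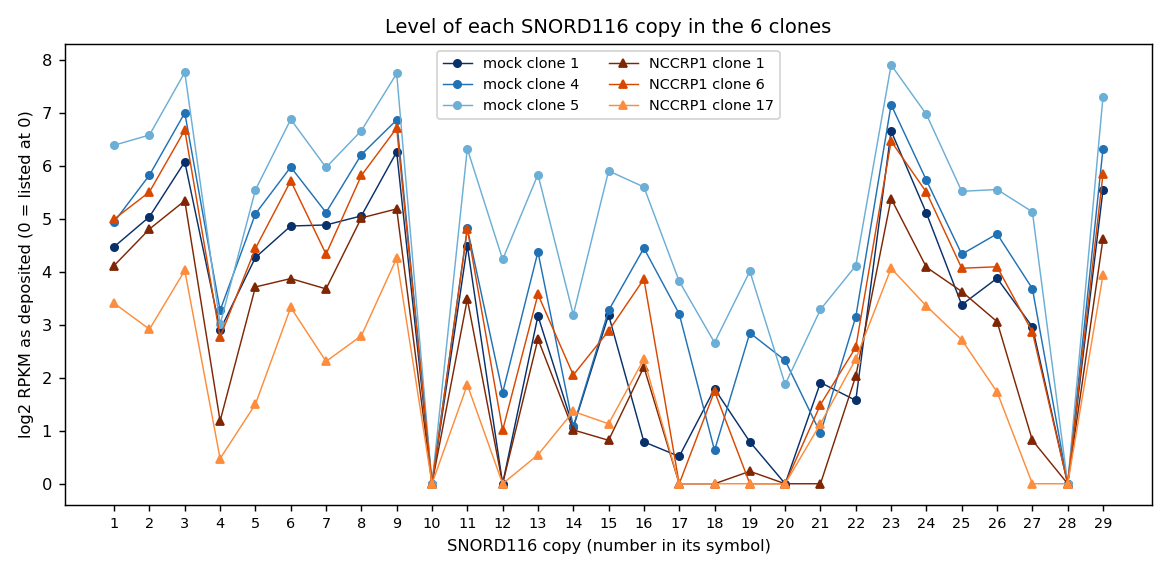
Deposited log2 RPKM of each of the 29 SNORD116 copies, in the order of their numbers and of their genomic positions, with 1 line per clone (circles mock, triangles NCCRP1). Mock clone 5 is the highest clone for most copies and NCCRP1 clone 17 the lowest for many, and copies 10 and 28 are listed at 0 in all 6.

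Of the 29 SNORD116 copies, 26 were above 0 in at least 3 clones and were tested, and 0 passed (limma adjusted p 0.4999 to 0.973), against 0.102% of all genes, or 0.0314% with NCCRP1 lower. At an unadjusted p under 0.05 there were 6, against 7.33% of all genes tested. The groups did not overlap, with NCCRP1 lower, for copies 4, 7, 15, 17, 19, 23 and 27, against 7.05% of all genes. Copies 17 and 19 are in both of these counts, and they met the filter only through the mock clones, where they were high. For copy 19, mock clone 1 and NCCRP1 clone 1 each rested on 2 estimated reads. Standard errors were wide, from 0.526 to 1.48 on the log2 scale, so a p above the threshold does not show equal levels. Of the 26 copies, 20 were above 0 in all 6 clones, which took values above 0 in both groups. Copies 17, 18, 19, 21 and 27 were above 0 in all 3 mock clones. They were left out of the 20 through listed 0 values in NCCRP1 clones alone, so this choice is not free of the group. All 20 were lower on average in the NCCRP1 clones, against 53% of the 11927 genes above 0 in all 6 clones. For 16 of them the NCCRP1 mean was lower by 1 or more on the log2 scale, against 0.369% of those genes. Their median log2 difference was -1.59, against -0.01 over those genes. For 4 of the 20 the groups did not overlap with NCCRP1 lower, against 6.88%. The copies share a host transcript and are not independent of each other. With every gene centred on the median of the other box C/D snoRNAs, 18 SNORD116 copies passed, and with snoRNA genes alone so centred, 0 did. The median log2 difference of the tested copies was -1.86 in both, and the SD that limma used for them was 0.492 in the first and 0.884 in the second. Without mock clone 1, SNORD116-17 and SNORD116-19 passed, both of which met the filter only through the mock clones, where they were high. Without NCCRP1 clone 6, SNORD116-4 passed.

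Mock clone 5 and NCCRP1 clone 17, the highest and lowest clones, were set side by side as a description chosen after their values were seen. The 20 copies differed between them by a median of 3.64 on the log2 scale, or 12.5-fold, from 1.76 for SNORD116-22 to 5.29 for SNORD116-13. The 138 other box C/D snoRNAs above 0 in all clones differed by a median of 0.07, and 2 of them reached the smallest SNORD116 value. These 138 include SNORD64 and SNORD109B, which belong to the 15q11 domain. SNORD64 was 1 of the 2, at 3.71 in mock clone 5 and 0.03 in NCCRP1 clone 17. Relative to each copy's own mean over the 6 clones, the median copy lay at -0.06, 0.73 and 1.62 in the mock clones. It lay at -0.79, 0.36 and -1.85 in the NCCRP1 clones. In NCCRP1 clones 1 and 17, 0 of 20 copies were above their own mean, and in NCCRP1 clone 6, 18 were.

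The level of other snoRNAs also differed between libraries, in another order. The median of the 138 other box C/D snoRNAs was log2 RPKM 10.23, 10.83 and 11.23 in the mock group and 11.001, 10.84 and 11.24 in the NCCRP1 clones. That of 80 box H/ACA snoRNAs was 8.65, 8.77 and 9.08 against 9.21, 8.56 and 9.20. The SNORD116 median minus that of the other box C/D snoRNAs was -5.75, -5.81 and -5.09 on the log2 scale in the mock and -7.31, -6.21 and -8.70 in the NCCRP1 clones, and on this relative scale the groups did not overlap. The summed SNORD116 reads were 0.146%, 0.183% and 0.302% of the summed reads of other box C/D snoRNAs in the mock and 0.0484%, 0.151% and 0.0256% in the NCCRP1 clones, which overlapped. Of the 138 other box C/D snoRNAs, 19 were lower on average in the NCCRP1 clones and 2 were lower by 1 or more on the log2 scale. SNORD64, of the 15q11 domain, was 1 of these 2.

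Other genes of the 15q11 domain give the setting of these values. SNRPN, which encodes a spliceosomal protein, stood at log2 RPKM 2.81, 2.67 and 2.86 in the mock group and 2.17, 2.68 and 0.05 in the NCCRP1 clones. NCCRP1 clone 17 was far below the rest, and NCCRP1 clone 1 was the next lowest, but NCCRP1 clone 6 lay just above mock clone 4 (log2 difference -1.15, limma adjusted p = 0.805). SNURF, which shares transcripts with SNRPN and is no separate measurement, stood at 3.30, 3.15 and 3.34 against 2.65, 3.16 and 0.48. Among the mock clones SNRPN spanned 2.67 to 2.86, while the summed SNORD116 level there ran from 56.1 to 184 RPM.

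Of the other snoRNAs on the 15q11 list, SNORD108 was listed at 0 in all 6 clones, and the other 4 were lower on average in NCCRP1 than in mock clones. SNORD107 stood at 2.12, 2.96 and 3.49 in the mock and at 0, 1.67 and 0 in the NCCRP1 clones (log2 difference -2.30, limma adjusted p = 0.260). It met the filter on low values only through the mock clones, the group in which it was high. SNORD64 stood at 2.09, 3.04 and 3.71 against 2.05, 1.91 and 0.03 (log2 difference -1.62, limma adjusted p = 0.648). For these 2 the groups did not overlap, with NCCRP1 lower, as for 7.05% of all genes tested. SNORD109A, at 1.86, 1.57 and 3.58 against 1.24, 0 and 2.36, and SNORD109B, at 1.28, 1.82 and 2.90 against 1.31, 1.497 and 1.62, overlapped, and in both mock clone 5 was again the highest.

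MKRN3 and UBE3A, on either side of these genes, were not low in NCCRP1 clone 17 in the way SNRPN was. MKRN3, expressed from the paternal copy, stood at 3.16, 3.31 and 3.15 in the mock and 2.99, 3.10 and 3.42 in the NCCRP1 clones. UBE3A, a ubiquitin ligase gene that is imprinted in neurons, stood at 3.22, 3.28 and 3.56 against 3.27, 3.34 and 3.13. MAGEL2, NDN, NPAP1 and IPW, also paternally expressed, were listed at 0 in all 6 clones. Of the 26 genes of the domain list found in the files, 12 were tested and 0 passed (9 with a lower and 3 with a higher NCCRP1 mean, median log2 difference -0.32 against -0.02 over all genes tested), and 13 were at 0 throughout. CYFIP1 of this list stood at 6.70, 6.73 and 6.88 in the mock and 7.03, 7.09 and 7.15 in the NCCRP1 clones. Its groups did not overlap, with NCCRP1 higher, as for 5.71% of all genes tested (log2 difference 0.32, limma adjusted p = 0.663). NIPA1, NIPA2 and TUBGCP5 overlapped, with log2 differences of 0.10, 0.05 and -0.04. SNHG14 itself was not analysed here.

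**Figure D4:**
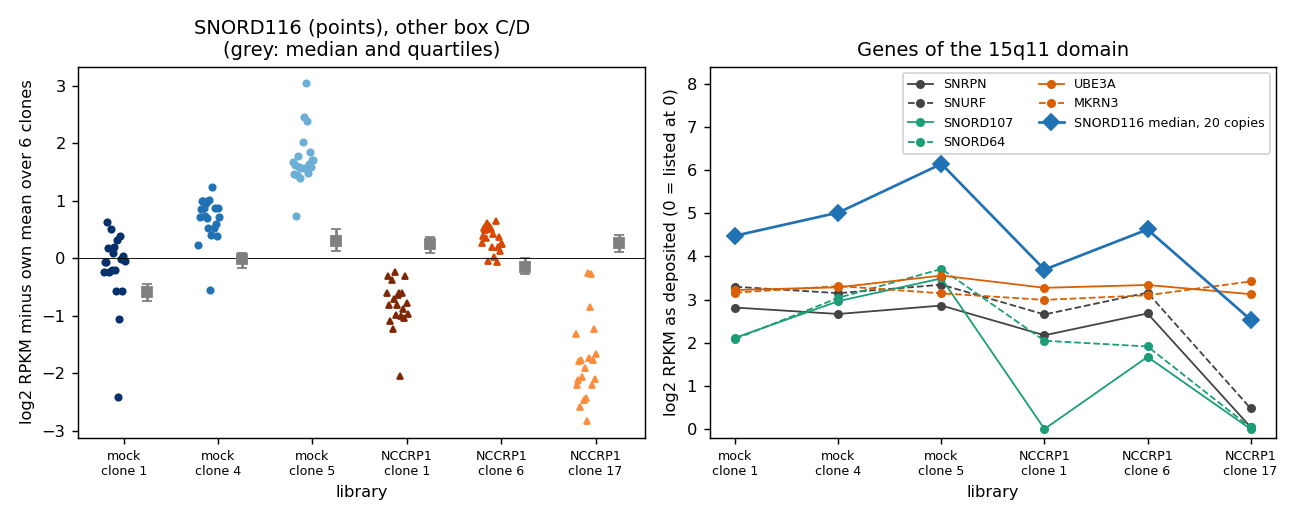
Left, log2 RPKM of the 20 SNORD116 copies above 0 in all clones minus each copy's mean over 6 clones (points), beside the median and quartiles of 138 other box C/D snoRNAs (grey squares and bars). Right, deposited log2 RPKM of 15q11 genes by clone, with 0 meaning listed at 0: SNRPN and SNURF are lowest in NCCRP1 clone 17, at 0.05 and 0.48, while UBE3A and MKRN3 stand at 3.13 and 3.42 there.

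Genes for the box C/D core proteins, for snoRNP assembly and for the upkeep of imprints were read from a further list. Of its 21 genes 19 were tested and 0 passed (13 with a lower and 6 with a higher NCCRP1 mean, median log2 difference -0.06 against -0.02 over all genes tested). The groups did not overlap, with NCCRP1 lower, for UHRF1, TET3 and DNMT1, as for 7.05% of all genes tested. UHRF1, which brings DNMT1 to replicating DNA, stood at 5.38, 5.25 and 5.09 against 4.57, 5.07 and 4.19 (log2 difference -0.63, limma adjusted p = 0.451). TET3, which oxidises methylated cytosine, stood at 3.44, 3.35 and 3.25 against 2.82, 2.999 and 3.08 (log2 difference -0.38, limma adjusted p = 0.616). DNMT1, the maintenance DNA methyltransferase, stood at 6.51, 6.36 and 6.45 against 5.92, 6.35 and 6.07 (log2 difference -0.33, limma adjusted p = 0.688). CTCF, an insulator protein that binds imprinting control regions, overlapped, at 5.40, 5.09 and 5.48 against 5.16, 4.94 and 4.87 (limma adjusted p = 0.683). The genes given with values here had the lowest limma p of the list, and no core or assembly gene was among them. The part of the listed genes in the SNORD116 levels was not tested.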

How the data were processed

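Total RNA of 3 mock and 3 NCCRP1 clones was sequenced on Ion Torrent libraries, 1 per clone. The authors deposited 1 value per Entrez gene and library, named RPKM per the file headers. These deposited values are log2 RPKM: taken as such, RPKM times gene length in kilobases summed to 1091849 to 1103169 per library, against at least 10972785 with natural logarithms. The submitters' processing notes name hg19 and bedtools 2.25.0 without roles, and the aligner is not given in the sources used here.

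Members, gene lists and tests were chosen with earlier results of these data known. RefSeq named 37997 of 40448 gene IDs. Sequences came from GENCODE v29 (116 members matched) and locations from its GRCh38 annotation, a build other than the hg19 of those notes. Reads were estimated as RPKM times RefSeq gene length times depth, and multiples of the depth outside 10000000 to 20000000 were not searched. Per library, 23.4% to 33.8% of low microRNA values lay within 0.005 of a whole read step, too few for a count model. All values of SNORD114 and SNORD115 lay within 0.02 of whole reads, as did 21 of 42 SNORD116 values under 10 reads.

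Genes above 0 in at least 3 of 6 libraries were tested with limma 3.58.1 in R 4.3.3 (trended, robust, two-sided, group as the sole term), with Benjamini-Hochberg adjustment over 12737 genes and a threshold of 0.05. The fit was tested on simulated data. Sums and intervals used Python 3.11.15 and scipy 1.17.1. Every member above 0 in some library was named, and genes of the 2 domain lists could be; from other lists, up to 4 tested genes with the lowest p could be named, besides markers listed at 0. Alternatives changed the filter, pseudocount, robust setting, scaling, sequencing run and clones.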

Additional observations from a re-analysis of the deposited data

How the results depend on the processing

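Of 12737 genes, 13 passed as reported. The number was 3 with genes above 0 in at least 1 library, 7 with genes above 0 in all 6, 4 with log2(RPKM + 1), 1 with log2(RPKM + 0.1), 5 without the robust setting and 2 with the sequencing run as a term. Leaving out a clone gave 0 (without mock clone 5, with 1363 genes at an unadjusted p under 0.05) to 29 (without NCCRP1 clone 1). It gave 5 without mock clone 1, 6 without NCCRP1 clone 6 and 2 without NCCRP1 clone 17. At 14q32, SNORD114-3 was the 1 call. There were 0 with genes above 0 in at least 1 library, with either pseudocount, without the robust setting, with the run as a term and with snoRNA genes alone centred, and 0 to 1 when leaving out a clone. With genes above 0 in all 6 libraries no 14q32 member could be tested.

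At 15q11 there were 0 calls as reported and 0 to 2 when leaving out a clone: SNORD116-17 and SNORD116-19 (in the test only through the mock clones) without mock clone 1, and SNORD116-4 without NCCRP1 clone 6. Centring every gene on the median of other box C/D snoRNAs gave 18 SNORD116 calls and 67 genes in all, and moved the median of all genes by -0.28. Centring on box H/ACA snoRNAs gave 8 and 48 (median -0.18), and on the summed box C/D reads 14 and 79 (median -0.20). The domain, microRNA and box C/D lists had 0 calls as reported and 3 under each of these centrings. They had 0 to 1 when leaving out a clone (SNORD107, in the test only through the mock clones, without NCCRP1 clone 6). These centrings add a shared spread to every gene. The SD that limma used for SNORD116 copies was then 0.49 in the median with the box C/D median, against 1.01 from their own clones. With only snoRNA genes centred, 0 SNORD116 copies passed (lowest adjusted p 0.114). The H/ACA, summed-read and snoRNA-only settings were chosen after seeing the data.

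Leaving out a clone gave log2 differences of -0.66 to 0.41 for SNORD116-14 and -2.22 to 0.19 for SNORD116-16, above 0 without mock clone 5 alone; the cause was not tested. Every other tested member kept its direction in every setting that was run. NCCRP1 clones had on average 4.33 fewer members above 0, and 3 to 6.17 fewer in the alternatives. The summed SNORD116 level kept its direction, with log2 differences of -2.50 to -1.06 in 10 settings added after seeing the data. The mean excess of 15q11 over 14q32 members above 0 was 24.5, and was 23.4 to 25.4 when leaving out a clone and 18.7 without members identical in sequence to another. For medians over all members it was 0, since most members are listed at 0.

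The fit with no filter on low values could not be fitted. No paired analysis was possible, since the labels pair no mock clone with an NCCRP1 clone. The number 1 occurs in both groups, but for separately labelled clones. Values under 1 RPKM are not visible, and SNORD114 and SNORD115 rest on at most 6 reads per value.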
